A study of Mus musculus with 6 samples.

Results

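RUNX1 peaks were described around 10 genes of blood vessel growth and the response to low oxygen in mouse granulosa cells, the somatic cells that line the ovarian follicle. The genes were Vegfa, Vegfc, Flt1, Kdr, Nrp1, Hif1a, Epas1, Angpt2, Ednra and Egln3, out of 21900 protein-coding genes with a position in the RefSeq table. A peak was assigned to a gene when its summit lay in the gene body or within 50 kb of either gene end, and such a stretch is called the gene's window below. All 10 genes were found in the table, and the rule itself uses no peak value. RUNX1 is a transcription factor, and its binding was mapped by chromatin immunoprecipitation and sequencing (ChIP-seq). The cells came from F1 mice (CBA x C57BL/6), 21 days old, given 5 IU of eCG, a gonadotropin that makes follicles grow. hCG, a hormone that mimics luteinising hormone and so triggers ovulation, was given at 5 IU 46 h after eCG. The groups are labelled 0 h and 6 h after hCG. There were 2 RUNX1 libraries and 1 pooled input for each time, and the treatment text of every sample describes the 6 h collection, so only the sample titles and the time label set the 0 h samples apart. The labels do not say whether replicates came from separate mice or how many mice were pooled, so the spread between replicates may be technical.

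The growing follicle wall has vessels in its theca layer, and the granulosa layer inside it is avascular until ovulation. After the ovulatory surge, granulosa cells release VEGFA, which acts on the receptors KDR and FLT1 and the co-receptor NRP1 of endothelial cells, and the ruptured follicle becomes the densely vascular corpus luteum. Low oxygen stabilises the HIF alpha subunits, encoded by Hif1a and Epas1, which prolyl hydroxylases such as EGLN3 otherwise mark for destruction. Binding near a gene says nothing of its expression, which was not measured here.

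The 4 lists differed greatly in length, with 948 and 3135 peaks at 0 h and 18761 and 28671 at 6 h. The background read level recovered from the peak values was 2.77 and 2.65 reads at 0 h and 2.76 and 2.13 at 6 h. It depends on depth and on peak-calling settings that are not given, so like values do not show like depth. Peaks cannot show which cells were in the samples. For orientation, a replicated region, a merged stretch that holds peaks from replicates 1 and 2 of the same time, lay in the window of 9 of 10 granulosa cell markers at 6 h and of 4 of 10 at 0 h. The counts were 9 and 1 of 10 for endothelial markers, 8 and 0 of 10 for leukocyte markers, and 8 and 1 of 10 for markers of theca and stroma. Over all protein-coding genes the shares were 68.8% at 6 h and 8.75% at 0 h. The share of other cells in the samples was not tested.

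The promoters of 4 genes were overlapped, in whole or in part, by a replicated region at 6 h, and their sequences are shown for that reason. The RefSeq promoter table (GRCm38.p6) had 9 entries for 8 of the genes, each from 250 bases before to 50 after a start site, and none was matched for Epas1 and Angpt2. A replicated 6 h region overlapped an entry of Vegfa, Vegfc, Hif1a and Egln3, or 4 of 8 genes, against 37.9% of 17492 protein-coding genes with an entry. A 0 h peak overlapped 0 of the 9 entries, against 6.77% of all 21238 promoter entries of protein-coding genes. The 250 bases before the start site are given 5′ to 3′ on the strand of the gene, with capitals on each core of a hypoxia response element, which is the pentamer ACGTG or GCGTG on either strand. The stretches are chr17:46032378-46032627 (minus strand) for Vegfa, chr8:54077282-54077531 (plus) for Vegfc, chr12:73907617-73907866 (plus) for Hif1a and chr12:54203875-54204124 (minus) for Egln3. All 250 bases lay under the 6 h region for Vegfa and Hif1a, 175 for Vegfc and 77 for Egln3.
Vegfa: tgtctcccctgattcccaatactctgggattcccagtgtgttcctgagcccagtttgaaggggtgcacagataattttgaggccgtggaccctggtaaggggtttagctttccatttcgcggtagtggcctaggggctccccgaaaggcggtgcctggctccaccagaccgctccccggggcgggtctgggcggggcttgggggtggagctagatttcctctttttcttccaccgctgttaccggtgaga
Vegfc: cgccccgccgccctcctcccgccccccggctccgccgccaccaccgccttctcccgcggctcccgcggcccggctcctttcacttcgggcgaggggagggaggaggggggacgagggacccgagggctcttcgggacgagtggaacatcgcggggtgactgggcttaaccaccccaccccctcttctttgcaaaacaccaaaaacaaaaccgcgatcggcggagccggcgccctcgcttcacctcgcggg
Hif1a: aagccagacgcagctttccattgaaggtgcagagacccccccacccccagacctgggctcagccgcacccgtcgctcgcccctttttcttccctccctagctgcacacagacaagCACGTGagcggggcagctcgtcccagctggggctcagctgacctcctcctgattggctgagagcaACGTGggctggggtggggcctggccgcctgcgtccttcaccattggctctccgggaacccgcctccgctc
Egln3: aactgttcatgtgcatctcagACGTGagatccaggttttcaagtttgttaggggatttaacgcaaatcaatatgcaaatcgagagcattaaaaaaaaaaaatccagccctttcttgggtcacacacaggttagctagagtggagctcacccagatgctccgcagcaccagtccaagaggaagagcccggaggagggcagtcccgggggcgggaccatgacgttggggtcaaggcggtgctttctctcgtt

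The Hif1a stretch held the hypoxia letters at 3 positions, of which the first and second form the palindrome CACGTG and read the same 6 bases on opposite strands. These matches began 135, 134 and 70 bases before the start site and all lay under the 6 h region. Egln3, itself a known target of the HIF factors, had ACGTG 229 bases before its start, outside the 6 h region. The stretches of Vegfa and Vegfc shown above had none, but the entry of a second Vegfa start, 7214 bp into the gene, had a pair. Of all 9 entries 6 held at least 1 such core, against 49.3% of 21238 promoters of protein-coding genes.

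The letters that RUNX proteins are known to recognise were looked for in the same entries, as TGTGGT and its variant TGCGGT on both strands. TGTGGT was in 0 of the 9 entries and in 15.0% of all promoters. TGCGGT was in 1 entry, that of Flt1, and in 7.43% of all promoters. Flt1 was also the gene without a peak in any library, so its promoter is shown for contrast (chr5:147726012-147726261, minus strand, with the RUNX match in capitals, 188 bases before the start site).
Flt1: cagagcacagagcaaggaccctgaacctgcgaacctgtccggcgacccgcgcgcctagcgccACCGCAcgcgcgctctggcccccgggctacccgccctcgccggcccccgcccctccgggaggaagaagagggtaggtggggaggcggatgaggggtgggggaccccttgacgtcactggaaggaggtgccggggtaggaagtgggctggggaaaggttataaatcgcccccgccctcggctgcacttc

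Its last bases overlap a hypoxia core that begins 184 bases before the start. None of the 4 overlapped promoters held either RUNX hexamer, which says only that these letters are not in this window of 300 bases. Across the series, TGTGGT was in 11.5% of the 7638 promoters overlapped by a replicated 6 h region and in 16.9% of the 13600 others, and either hexamer was in 22.8% and 20.8%. For the 284 promoters overlapped by a replicated 0 h region and the 20954 others, TGTGGT was in 16.9% and 14.9%, and either hexamer in 43.3% and 21.3%. A hypoxia core was in 70.8% of the promoters overlapped at 6 h and 37.2% of the others. The promoters overlapped at 6 h also had more G and C, with a median of 63.7% against 51.7%, and the entries of the 8 genes ranged from 54.7% to 70.7%. The part of base composition in these shares was not tested.

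Across the 10 windows, RUNX1 peaks were few before hCG and many after it. There were 3 peaks in each 0 h library and 23 and 40 in the 6 h libraries. The 0 h mean was 3 ± 0 and the 6 h mean 31.5 ± 12.0 (SD, 2 libraries each), a 10.5-fold difference, and the groups did not overlap. On the log2 scale the 6 h mean was 3.34 higher (p = 0.333 in a two-sided exact permutation test), and 0.333 is the smallest p that 2 libraries against 2 can give. The whole lists grew by a like factor, since their mean length was 11.6 times as high at 6 h.

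Set against list length, the genes' peaks were 0.316% of the list in 0 h replicate 1 (95% Clopper-Pearson interval 0.0653 to 0.922) and 0.0957% in replicate 2 (0.0197 to 0.279). At 6 h they were 0.123% (0.0777 to 0.184) and 0.140% (0.0997 to 0.190). These intervals cover counting error only. The 6 h values lay between the 0 h values, and the 6 h mean of 0.131% ± 0.0120 differed from the 0 h mean of 0.206% ± 0.156 (SD, 2 libraries each) by less than the replicate spread (p = 1 in the same exact test). The difference of -0.0750 percentage points became 0.0354 without 0 h replicate 1, so its direction rests on that library. With peaks of −log10 q of at least 20 alone it was -0.212 points, and both 6 h shares then lay below both 0 h shares (exact p = 0.333). The 0 h shares at this limit rest on the leading Vegfa and Angpt2 peaks alone. Their −log10 q was 33.1 and 91.1 in 0 h replicate 1, and 87.3 and 98.3 in replicate 2.

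In the full lists, peaks inside the gene bodies were called at 6 h alone. No 0 h peak had its summit in the body of any of the 10 genes, while 11 and 22 peaks did at 6 h. The 0 h peaks all lay in the flanks, near Vegfa, Angpt2 and Ednra. As a share of the list, the peaks in the bodies were 0% in both 0 h libraries and 0.0586% and 0.0767% in those of 6 h (p = 0.333 by exact permutation, the smallest possible). A peak in the body was found for 0 of the 10 genes in both 0 h libraries and for 6 and 9 at 6 h, against 2.31%, 8.04%, 37.0% and 44.8% of all protein-coding genes in the same order of libraries. In lists shortened to 948 peaks each, no library had a peak in the body of any of the 10 genes, so this contrast rests on the longer 6 h lists. The short 0 h lists also limit it, since 3 counts in 3135 peaks would already exceed the 6 h shares. The shares of all protein-coding genes are not matched for gene length. With equal flanks, the median window was 156 kb for the 10 genes and 117 kb over all protein-coding genes. The 10 genes thus have longer bodies in which a peak can fall, and the part of length was not tested.

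**Figure D1:**
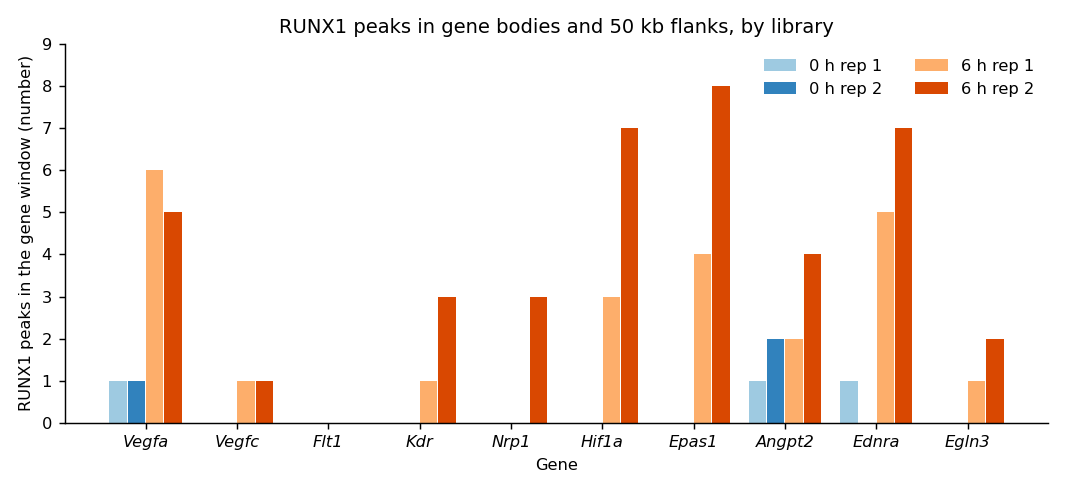
Bars give the number of RUNX1 peaks (y axis) with a summit in the window of each gene (x axis) in the 4 libraries, 0 h in blue and 6 h in orange. The 0 h bars reach at most 2, Flt1 has none in any library, and Epas1 reaches 8 in 6 h replicate 2.

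Gene by gene, 7 of the 10 genes had more peaks in both 6 h libraries than in either 0 h library, namely Vegfa, Vegfc, Kdr, Hif1a, Epas1, Ednra and Egln3. That is 70%, against 64.6% of all protein-coding genes. At 0 h, 2 genes had a replicated region in the window (Vegfa and Angpt2), against 8.75% of all protein-coding genes. At 6 h, 8 genes had one, all except Flt1 and Nrp1, against 68.8%. These shares lie near the background at 6 h, and with 10 genes the count at 0 h differs from it by about 1 gene. The median window of the 10 genes was 156 kb against 117 kb over all protein-coding genes, because several of the genes are long.

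Per length of window the genes differed widely at 6 h. Vegfa had 5.20 and 4.33 peaks per 100 kb in 6 h replicates 1 and 2. It was the highest of the 10 in replicate 1 and the fourth in replicate 2. Ednra had 3.10 and 4.34, Hif1a 2.05 and 4.79, and Epas1 2.23 and 4.46. Angpt2 had 1.32 and 2.64. These 5 genes lay above the median of protein-coding genes, 0.994 and 1.82 per 100 kb, in both libraries.

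The other 5 genes did not lie above it in both. Kdr had 0.684 and 2.05 peaks per 100 kb, and Egln3 0.801 and 1.60. Nrp1 had 0 and 1.22, Vegfc 0.479 in both, and Flt1 none. In this order each gene's range over the 2 libraries overlapped that of its neighbour, except that Vegfc and Flt1 did not overlap. The lists differ in length, and within each of them Vegfa, Ednra, Hif1a and Epas1 all lay above Angpt2, which lay above the other 5 genes. At 0 h the density was 0.867 in both libraries for Vegfa, 0.661 and 1.32 for Angpt2, 0.619 and 0 for Ednra, and 0 for the other 7 genes.

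Overlapping peaks of the 4 lists made 42 sites in the windows. Of these 4 were called at both times, 38 at 6 h alone and 0 at 0 h alone. The 38 are 90.5% of the sites, near the 89.6% of all 29186 sites of the lists that were called at 6 h alone. Of the 38 sites at 6 h alone, 15 were found in both replicates, 20 in replicate 2 alone and 3 in replicate 1 alone. The longer 6 h list thus supplied most of the sites seen once.

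**Figure D2:**
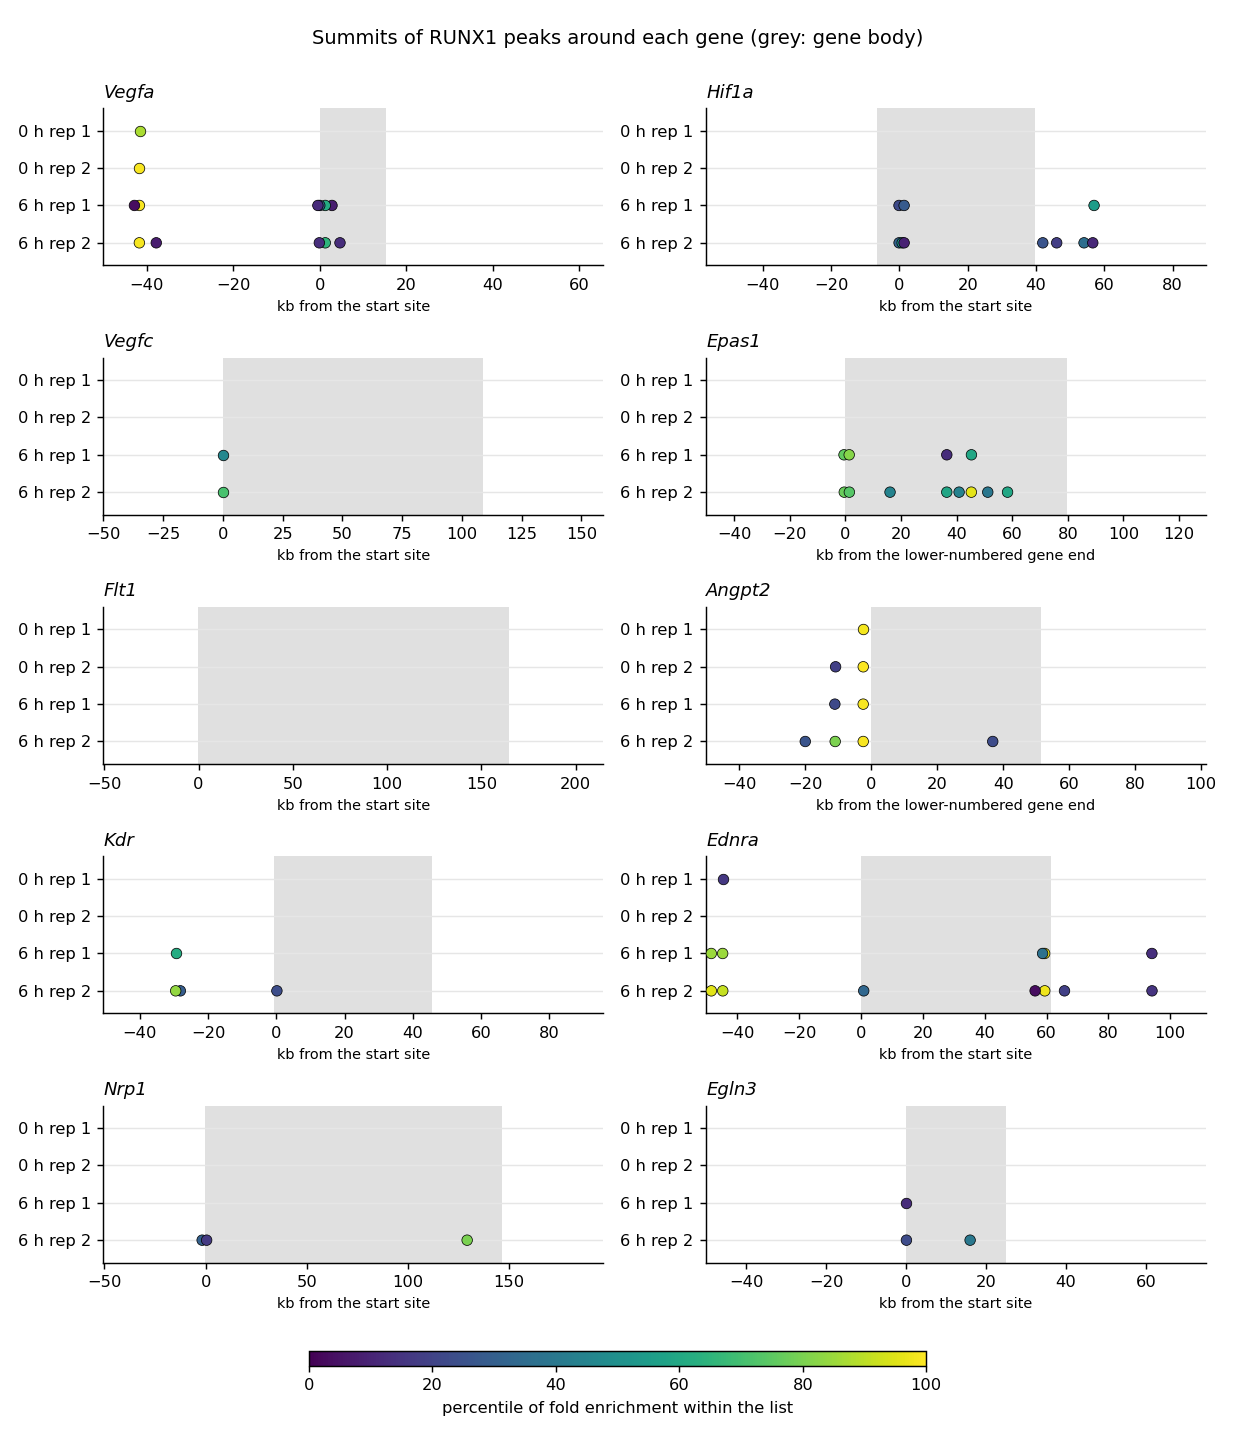
Each panel shows 1 gene, with the distance of each peak summit in kb on the x axis (from the start site along the gene, or from the lower-numbered gene end for Epas1 and Angpt2), a row per library, grey for the gene body, and colour for the percentile of fold within the list. The 0 h summits of Vegfa, Angpt2 and Ednra fall outside the gene bodies, and 6 h summits gather at the start sites of Vegfa, Vegfc, Hif1a and Egln3.

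Among the ligands, Vegfa (chromosome 17, 46016993 to 46032377, minus strand) had 1 peak in each 0 h library, and 6 and 5 at 6 h. VEGFA is the main growth factor for new vessels. Its single 0 h site was also its strongest at 6 h, at chr17:46073519-46074590, 41.7 kb before the start site in intergenic sequence, and the nearest annotated gene end there was that of Gm19969 at 20.3 kb. Fold enrichment, the authors' ratio of ChIP reads to local background at the summit, was 11.5 and 21.8 before hCG and 35.1 and 47.6 after it. Fold depends on each list's own depth and input, so ranks within the list are given beside it. The percentiles were 87.3 and 99.2 before hCG and 99.0 and 98.7 after it. The site thus ranked high in every list at both times.

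The reads piled up at this Vegfa site could be recovered as well. They numbered 47 and 87 before hCG and 260 and 283 after it, or 17.0, 32.8, 94.2 and 133 times the background of the library. Both 6 h values lay above both 0 h values, and the ratio of their geometric means was 4.74, or 2.24 on the log2 scale (p = 0.333 by exact permutation, the smallest possible). The same ratio had a median of 3.61 (1.85 on the log2 scale) over the 791 replicated 6 h regions that overlapped a replicated 0 h region, and it was above 1 at 777 of them. The rise at Vegfa was thus above that median and below the upper quartile of 2.29 on the log2 scale. The 0 h values of 17.0 and 32.8 lie farther apart than 4.74 and 3.61 do, so this placement is not firm. The 4 summits lay within 72 bp of each other.

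The other replicated Vegfa regions were at the gene start and were found at 6 h alone. A region of 1786 bp at chr17:46030296-46032081, inside the gene and 1.25 kb after the start site, reached folds of 9.83 and 13.2, at percentiles 61.1 and 65.0. A weaker region at chr17:46032208-46032627 had its summit 18 bp before the start site, with a fold of 6.93 and 6.73, at percentiles 29.1 and 13.0. So the promoter itself held one of the weaker peaks, and the distant site ranked far above it in both libraries.

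Vegfc (chromosome 8, 54077532 to 54186454, plus strand), a ligand best known for lymphatic vessels, had a single site. It lay on the start site at chr8:54077357-54077974, with the summit 2 bp after it. The fold was 8.24 and 14.7 at 6 h, at percentiles 46.2 and 71.1, and there was no 0 h peak in the window. The predicted gene Gm33153 also spans this summit, so the promoter of Vegfc and that gene cannot be told apart here.

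Angpt2 (chromosome 8, 18690263 to 18741562), an antagonist ligand of the TEK receptor that loosens vessel walls, was the only gene with peaks in all 4 libraries besides Vegfa. It had 1 and 2 peaks at 0 h and 2 and 4 at 6 h, so its counts in the 2 groups touched at 2. Its leading region lay at chr8:18687445-18688440, 2.44 kb outside the lower-numbered gene end. The gene table gives no strand and no promoter entry was matched, so this end was not resolved as start or finish, and the region is also inside Mcph1, the gene that spans this locus.

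That Angpt2 site was strong before and after hCG. At 0 h the folds were 18.9 and 22.2 (percentiles 98.4 and 99.4), and at 6 h they were 36.1 and 50.4 (percentiles 99.1 and 99.0). The pileup was 100 and 98 reads in the 0 h libraries and 238 and 300 in those of 6 h, or 36.1, 37.0, 86.2 and 141 times the library background. The site ranked near the top of each list. Over the library background, the pileup was 3.02 times as high at 6 h (1.59 on the log2 scale, p = 0.333 by exact permutation, the smallest possible). This is below the median ratio of 3.61 at shared sites. All 4 summits lay within 20 bp.

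A second Angpt2 site, at chr8:18679133-18679538 and 10.9 kb from the gene, was called in 3 libraries. Its fold was 5.83 in 0 h replicate 2, 6.39 in 6 h replicate 1 and 17.7 in 6 h replicate 2, at percentiles 18.9, 22.0 and 80.1. The 6 h replicates differed by more than 0 h replicate 2 and 6 h replicate 1 did, so no change between the times can be read from this site.

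**Figure D3:**
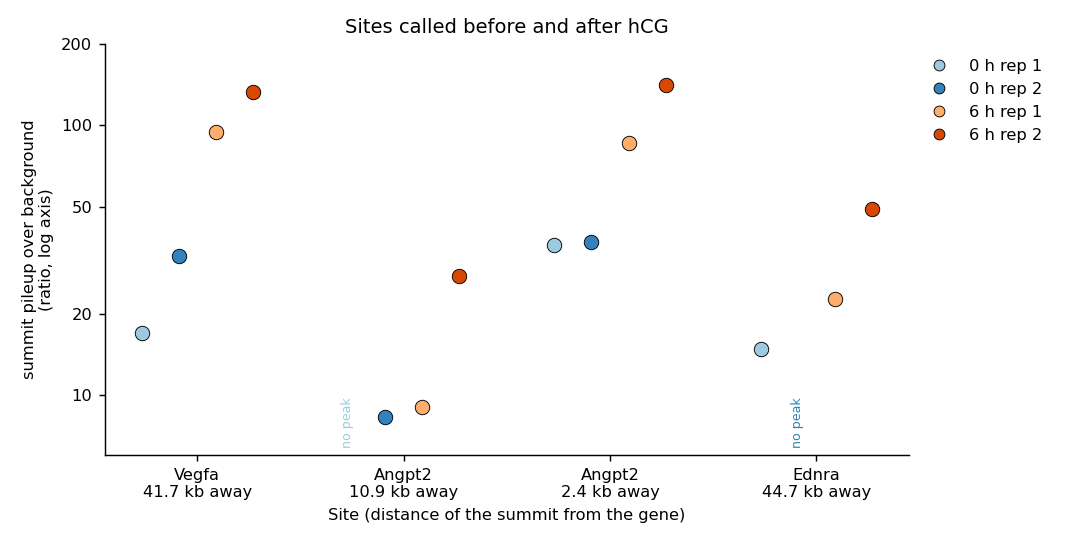
Points give the summit pileup divided by the background of the library (y axis, log scale) at the 4 sites called at both times, with 0 h libraries in blue and 6 h in orange. At the Vegfa site and at the Angpt2 site 2.4 kb away both 6 h points lie above both 0 h points, and at the other sites 1 of the 0 h libraries had no peak.

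Of the VEGF receptors and their co-receptor, 1 of 3 had a replicated 6 h region in its window, against 68.8% of protein-coding genes. None of the 3 had a 0 h peak, as for 90.6% and 71.8% of protein-coding genes in the 0 h lists. Flt1 (chromosome 5, 147561604 to 147726438, minus strand), a receptor that also has a soluble decoy form, had 0 peaks in all 4 libraries although its window of 265 kb is the longest of the 10. In each of the 6 h lists a count of 0 was found for 30.7% and 23.9% of protein-coding genes. Kdr (chromosome 5, 75932827 to 75979072, minus strand), the main signalling receptor, had no 0 h peak and 1 and 3 peaks at 6 h. Its replicated region was at chr5:76007647-76008083, 29.5 kb before the start site and inside Gm32727, with folds of 9.84 and 19.5 (percentiles 61.4 and 83.9).

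Nrp1 (chromosome 8, 128358591 to 128505476, plus strand), the co-receptor, had peaks in 6 h replicate 2 alone, 3 in number. The strongest, at chr8:128488263-128488546 inside the gene, had a fold of 17.6 at percentile 80.0. With a single library behind them, these peaks have no replicate check. A peak at the start site of Kdr, at chr5:75978180-75978459 with a fold of 7.80, was likewise called in 6 h replicate 2 alone.

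Ednra (chromosome 8, 77663029 to 77724452, minus strand) encodes the endothelin receptor A, which acts in the contraction of smooth muscle. It had 1 and 0 peaks at 0 h and 5 and 7 at 6 h. The strongest of its 4 replicated 6 h regions lay at the far end of the gene, 59.4 kb after the start site and 1.99 kb inside the gene, at chr8:77664592-77665947, where the gene 4933431K23Rik also lies. Its fold was 25.8 and 40.7, at percentiles 96.7 and 97.6, and no 0 h peak overlapped it. Among the replicated regions of the 10 genes without a 0 h peak, this one had the highest mean percentile, and its pileup was 116 and 146 reads.

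The Ednra window also held a pair of regions 44.7 and 48.4 kb before the start site. The nearer one, at chr8:77768952-77769325, was the site with the single 0 h peak, whose fold was 5.60 at percentile 16.0. The 6 h folds there were 15.1 and 25.6, at percentiles 84.9 and 91.1. The farther one, at chr8:77772449-77772994, was found at 6 h alone with a fold of 15.1 and 32.9. It was the last region inside the limit of 50 kb, and the next, 50.6 kb away and so not counted, had a fold of 6.06 and 8.71. No peak of Ednra overlapped its promoter entry.

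Of the HIF subunits, Epas1 (chromosome 17, 86753864 to 86833410) had no 0 h peak and 4 and 8 peaks at 6 h. Its 4 replicated regions were all at the lower-numbered gene end or inside the gene. The region with the highest mean percentile spanned chr17:86754365-86756002, 1.45 kb inside that end, with folds of 14.0 and 15.4 at percentiles 81.8 and 73.7. A neighbour at chr17:86752930-86753864 had its summit 376 bp outside the end, with a fold of 12.4 and 16.6. The mean percentiles were 77.73 and 76.59 for these regions and 77.67 for the region at chr17:86798867-86799457, so the lead is slight.

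Of the 19 replicated 6 h regions, the fold differed most between replicates at another Epas1 region, chr17:86798867-86799457 within the gene. Its fold was 9.60 in 6 h replicate 1 and 34.1 in 6 h replicate 2, at percentiles 59.5 and 95.8, with a pileup of 58 and 160 reads. No 0 h peak overlapped it.

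Hif1a (chromosome 12, 73901324 to 73947554, plus strand) had no 0 h peak and 3 and 7 peaks at 6 h. The region over its start site, chr12:73907453-73908477, reached folds of 6.42 and 8.56 at percentiles 22.4 and 31.0. The next, at chr12:73908580-73909374, began just after it and had 6.88 and 11.2. The third lay 17.3 kb beyond the gene, inside Snapc1 and 435 bp from an end of that gene, with 9.06 and 6.55. The percentiles of the latter regions were 28.3 and 53.1, and 55.0 and 11.2. The summits of the replicates lay 567 and 375 bp apart in these regions, so the paired folds come from different summits. At chr12:73908580-73909374, replicate 2 also had a peak near the replicate 1 summit, with a fold of 6.32 at percentile 9.24.

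Egln3 (chromosome 12, 54178981 to 54203874, minus strand) encodes a prolyl hydroxylase that limits the HIF subunits. It had no 0 h peak and 1 and 2 peaks at 6 h. Its replicated region, chr12:54203487-54203951, lay 68 bp after the start site with a fold of 5.58 and 7.75, at percentiles 12.2 and 22.7. Its pileup was 20 and 26 reads.

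**Figure D4:**
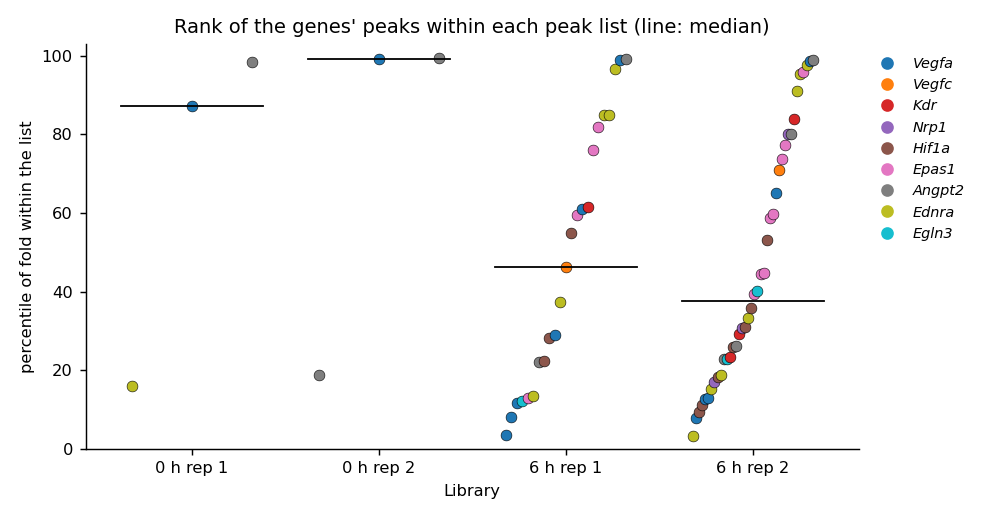
Each point is 1 peak of the 10 genes, placed by library (x axis) and by the percentile of its fold within that list (y axis), with the median as a line and colours for genes. The leading Vegfa and Angpt2 peaks lie at or above percentile 87.3 in all 4 libraries, and the other 6 h peaks spread over the whole range.

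Over all peaks of the 10 genes, the median percentile was 87.3 and 99.2 in the 0 h libraries, with 3 peaks each, and 46.2 and 37.6 in the 6 h libraries. The 6 h peaks thus covered the full range of their lists, from 3.44 to 99.1 in replicate 1 and from 3.30 to 99.0 in replicate 2. When each list was shortened to its 948 peaks of lowest p, only the leading sites of Vegfa and Angpt2 were left at 6 h, with 2 peaks in both libraries. The 0 h lists then held 3 and 2. The log2 difference of 3.34 in peak number became -0.29 in these equal lists. This negative value rests on the Ednra peak of 0 h replicate 1 alone. The higher number at 6 h was thus not seen in lists of equal length.

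The 10 genes had 19 replicated regions at 6 h and 2 at 0 h. Of the 19, 15 overlapped no 0 h peak, or 78.9%, against 83.5% of all 17190 such regions, and without 6 h replicate 1 the count was 36 of 40 peaks. Both 0 h regions overlapped a replicated 6 h region, as 95.0% of the 847 did over the series. The 15 regions had a median percentile of 58.6, against 98.9 for the 2 shared with a replicated 0 h region, and over the series these medians were 54.4 and 91.7. Of the 19 regions, 9 lay inside the gene, 3 outside within 10 kb and 7 farther out. For 13 the nearest annotated gene end was that of the gene itself, and for 6 another gene was nearer. These positions were counted for the 10 genes alone, so they do not show a placement particular to them.

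Other genes of the same pathways were counted in windows made the same way. Of 49 such genes, 43 had a replicated region at 6 h and 5 at 0 h, against 68.8% and 8.75% of protein-coding genes. By role, the 6 h counts were 15 of 15 hypoxia-inducible genes, 7 of 7 genes of oxygen sensing, 12 of 14 ligands and vessel receptors, 4 of 6 genes of the endothelin axis and 5 of 7 genes that restrain vessels. The genes without one were Pgf, Tek, Edn3, Ednrb, Thbs1 and Thbs2. Of these, Pgf had 1 peak in 6 h replicate 2, and the other 5 had 0 peaks in every library, among them Tek, the receptor of ANGPT2, and Ednrb, the other endothelin receptor.

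The peak numbers of Epas1 and Ednra, the genes with the most peaks at 6 h (mean 6 each), were compared with those of all protein-coding genes outside the 10 windows. Likeness was the Euclidean distance of log2(peaks + 1) over the 4 libraries. Epas1 shared its exact counts with 61 genes, of which Sptlc2, St3gal1 and Rras2 were nearest in window length. Ednra shared its counts with Slc8b1 alone, and Usp48 and Gna12 followed at a distance of 0.193.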

How the data were processed

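RUNX1 ChIP-seq peak lists of 4 libraries (single-end reads of 75 nt, per the labels) were used, and the 2 inputs entered through the peak calls alone. Reads were aligned with Bowtie2 2.2.5 to mm10 and peaks called with MACS2, per the submitters' processing notes. Peak names in the deposited lists show that each library was called on its own against an input. The MACS2 version, settings and read filters are not given in the sources used here. The deposited lists hold a fold enrichment ratio, a −log10 p and −log10 q, a score (10 times −log10 p, rounded down, not used) and a summit offset per peak. The lowest −log10 p was 9.01 to 9.18. All these values are the authors'.

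Positions are counted from 1. The gene table is RefSeq GRCm38.p6, the same assembly as mm10, and the promoter sequences are from RefSeq on that build. With the table as it is, 45.9% of summits lay within 1 kb of a gene end, and 10.3% with it moved by 100 kb. Sequencing depth was not given. Pileup and background were recovered from each fold and p-value (pseudocount 1, largest misfit 0.00034 in −log10 p, 100% of peaks solved). The commonest background value was taken as the background of the library. Replicated regions share at least 1 bp. Libraries were compared with exact permutation tests in Python 3.11.15 (SciPy 1.17.1), and the code was tested on simulated lists. The 10 genes, the lists and the tests were chosen with earlier results of these data known. All 10 genes were described, with the leading 6 h region and each replicated 0 h region of every gene, and of the other pathway genes those with a 0 h region or without a 6 h region. Other regions were picked after their values were seen. Other windows, peak limits, overlap rules and left-out libraries were tried.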

Additional observations from a re-analysis of the deposited data

How the results depend on the processing

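The higher peak number of the 10 genes at 6 h kept its direction in all settings that gave a value except lists of equal length (-0.29 on the log2 scale). That exception rests on the Ednra peak of 0 h replicate 1. For gene bodies alone no log2 value exists, because both 0 h counts are 0. The difference in the share of the list was -0.212 percentage points with a −log10 q of at least 20 (exact permutation, p = 0.333). It turned to 0.0219 percentage points with 10 kb flanks and 0.0677 with gene bodies alone, was 0 for gene bodies with lists of equal length (chosen after seeing the data), and ran from -0.185 to 0.0354 with 1 library left out. Genes with a replicated 0 h region fell from 2 to 1 with 10 kb flanks and 0 in gene bodies. Those with a 6 h region fell from 8 to 2 with lists of equal length. The 15 of 19 regions without a 0 h peak became 9 of 9 in gene bodies, 9 of 11 with a −log10 q of at least 20 and 0 of 2 with lists of equal length. With 1 library left out they ran from 16 of 19 to 36 of 40. The 2 of 2 shared 0 h regions became 1 of 1 with 10 kb flanks, 0 of 0 in gene bodies and 1 of 2 when 50% of both intervals had to overlap.

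With the replicate number as a block, the log2 difference was 3.34 (exact sign permutation, two-sided, p = 0.5, the smallest 2 pairs can give) and the share difference -0.0750 (p = 1). The deviations of same-numbered libraries had a correlation of -0.149 over 16706 genes, and the labels do not say that a number marks a shared source. For the 9 genes other than Flt1, and the settings that can change it, the number of 6 h regions per gene stayed within 1.5 times its value 47 times and moved farther 34 times. A site below the peak limit is not in the lists, so a missing peak is not absent binding.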

Other observations

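Other genes of the same pathways with a replicated region at 0 h were Ece1, Ldha, Bnip3, Adm and Sema3f. Adm encodes adrenomedullin, a vasodilator peptide induced by low oxygen. Its site at chr7:110618878-110620062, 8.14 kb outside the gene and nearer to an end of Sbf2, reached folds of 31.7 and 55.0 after hCG (percentiles 98.5 and 99.4). The 0 h region at the same place had 4.69 and 6.28, at percentiles 6.86 and 26.4. These ranks come from lists of very different length, so no change can be read from them.

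The leading 0 h regions in the windows of Bnip3 and Ldha lay at other genes. The one in the Bnip3 window was 44.6 kb away and 53 bp from an end of Mapk1ip1, with a fold of 10.7 and 13.0 at 0 h and 21.7 and 31.0 at 6 h. That of Ldha was 46.3 kb away at Hps5. In the Ece1 window, the endothelin-converting enzyme gene, the leading 0 h region was inside Eif4g3, while the leading 6 h region was inside Ece1 with a fold of 16.0 and 29.2 and no 0 h peak. The Sema3f window held a 0 h region inside Slc38a3, with a fold of 9.38 and 8.73, that overlapped no replicated 6 h region.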
